A study of Mus musculus with 4 samples.

Results

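The regions described here are sites between protein-coding genes, called as enriched for ATPases of the BAF chromatin remodelling complex in depolarized mouse cortical neurons. They are the islands (stretches of clustered reads) of the KCl library that are over 600 bp and under 5 kb wide, overlap no RefSeq protein-coding gene, and lie over 2 kb and at most 50 kb from the nearest such gene. This rule held for 2314 of the 20966 KCl islands (11.0%), and for brevity they are called distal islands below. The neurons were wild type, dissociated from E16.5 mouse cortex and grown as a primary culture. ChIP used the J1 antibody, which binds BRG1 and BRM, so the signal of these ATPases cannot be separated. The KCl culture was held in 50 mM KCl for 1 h on day 6 in vitro, after 1 µM TTX (a sodium channel blocker) and 100 µM APV (an NMDA receptor antagonist) on day 5 to silence spontaneous firing. The basal culture had the basal level of KCl, and its labels do not say whether it received TTX and APV. Each condition had 1 IP and 1 input library (4 samples), so no difference between conditions has a replicate check, and no test between conditions or between classes of islands was made.

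BAF (SWI/SNF) complexes use ATP to slide or evict nucleosomes, and BRG1 (Smarca4) or BRM (Smarca2) is their motor subunit. Besides promoters they occupy distal enhancers, where they act with sequence-specific transcription factors to keep DNA accessible. In neurons, membrane depolarization switches on rapid response genes, many of which encode transcription factors such as FOS, and then delayed genes for secreted factors and synaptic regulators, and many of their enhancers lie outside gene bodies. Proximity to a gene does not show that an island regulates it.

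Because no protein-coding gene overlaps the distal islands, the annotated transcripts they do cover are short or noncoding. In all, 6 miRNA genes lay in or at the edge of 5 distal islands. Mature sequences from the RefSeq-based table (build GRCm38.p6) are shown so that the miRNAs of these loci can be told apart by their seeds. Both arms are given for miR-9, miR-9b and miR-12182 and the 5p arm for miR-7b and let-7b, and a mature miRNA can also be made from other loci. They are written 5′ to 3′, and capitals mark the seed, bases 2 to 8, which pairs with target mRNAs.
mmu-miR-9-5p: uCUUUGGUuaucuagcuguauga
mmu-miR-9-3p: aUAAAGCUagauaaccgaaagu
mmu-miR-9b-5p: uUCGGUUAucuagcuuuauga
mmu-miR-9b-3p: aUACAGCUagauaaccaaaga
mmu-miR-7b-5p: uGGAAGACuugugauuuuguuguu
mmu-let-7b-5p: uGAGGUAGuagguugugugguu
mmu-miR-12182-5p: aCAGCGCCagcugccuaauuga
mmu-miR-12182-3p: uAAUUAGGcucuggaucuguga
All of these seeds differ from each other. The miR-9 arms come from Mir9-3 on the plus strand of chromosome 7 and the miR-9b arms from Gm51285 on the minus strand of the same place, so 1 island covers both. Mir124a-3, a copy of the abundant neuronal miR-124, is the sixth miRNA gene.

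The island over Mir124a-3 (chr2:180892801-180896000, mm10) held 111 IP reads and 28 control reads, a fold of 2.49 over control (95% interval 1.63 to 3.92), and covered the whole hairpin gene. Its nearest protein-coding gene was Ythdf1, a reader of methylated adenosines in mRNA, 8.38 kb away. The island over Mir7b (chr17:56241601-56243400) was 3.45-fold (1.61 to 8.50), that over Gm51288 (chr11:86852001-86853200) 3.38-fold (1.57 to 8.31), and the shared island of Mir9-3 and Gm51285 (chr7:79504401-79507600) 1.93-fold (1.24 to 3.10). These intervals overlapped one another, so no order among the miRNA islands can be read. The island at Mirlet7b (chr15:85707401-85710600, 1.86-fold, 1.17 to 3.05) covered only the last 3 bp of that gene, outside the let-7b-5p sequence. None of the 5 islands overlapped a basal island, but only 2.03% of all distal islands did. The share of 5 of 2314 (0.216%) is below the 0.348% of all KCl islands that overlap a miRNA gene.

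Long noncoding RNA genes were the most frequent annotation. In all, 106 RefSeq promoter windows (250 bases before to 50 after a transcript start) of 95 lncRNA genes touched a distal island. Among the lncRNA promoter windows that lie 2 to 50 kb from a protein-coding gene, 3.30% of 3728 were in a KCl island. The share was 8.67% of all 11588 lncRNA windows, and 17.5% of all RefSeq promoter windows, those of protein-coding genes included. Windows were searched on both strands for the letters TGANTCA (AP-1, the motif of FOS and JUN dimers), TGACGTCA (CRE, the motif of CREB), CAGATG (an E-box of neurogenic bHLH factors), GGGCGG (the GC box of SP factors) and the MEF2 motif (CTA and TAG with any 4 bases between). A full CRE cannot hold this AP-1 motif, and no other pair of these motifs contains each other. The GC box stood in 31.1% of the 106 windows, in 10.9% of the 3728 lncRNA windows at that distance and in 35.7% of all windows. AP-1 stood in 9.43%, 10.2% and 7.81% of them, the E-box in 17.9%, 23.5% and 17.2%, CRE in 2.83%, 1.02% and 1.79%, and MEF2 in 6.604%, 3.997% and 3.69%. The GC box was thus the motif whose share in the windows touching distal islands was farthest from that of lncRNA windows at the same distance, and the median CpG count was 7 against 4. AP-1 letters were about as frequent in both sets. Windows of a gene can overlap, so they are not independent. The MEF2 share rests on 7 windows and the CRE share on 3. Most of the 7 are overlapping starts of Mir670hg in the same island, and these also count among the 10 AP-1 windows.

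The 4 windows below show the range of base composition among lncRNA starts under distal islands. They were picked with their values in view and are printed 5′ to 3′ on the strand of the gene from the RefSeq-based table (GRCm38.p6), with the motifs found in capitals.
Gm45904: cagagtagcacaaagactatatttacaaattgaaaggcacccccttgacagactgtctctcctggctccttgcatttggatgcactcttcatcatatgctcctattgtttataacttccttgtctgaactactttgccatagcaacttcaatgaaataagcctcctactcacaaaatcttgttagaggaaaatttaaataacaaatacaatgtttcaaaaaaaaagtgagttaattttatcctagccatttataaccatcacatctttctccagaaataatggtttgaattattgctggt
B330016D10Rik: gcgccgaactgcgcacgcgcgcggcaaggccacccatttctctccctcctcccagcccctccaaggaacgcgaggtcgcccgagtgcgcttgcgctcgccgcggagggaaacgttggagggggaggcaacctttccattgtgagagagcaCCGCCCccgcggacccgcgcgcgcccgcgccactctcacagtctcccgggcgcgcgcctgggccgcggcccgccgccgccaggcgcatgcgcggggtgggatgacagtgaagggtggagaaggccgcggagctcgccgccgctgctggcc
Gm9530: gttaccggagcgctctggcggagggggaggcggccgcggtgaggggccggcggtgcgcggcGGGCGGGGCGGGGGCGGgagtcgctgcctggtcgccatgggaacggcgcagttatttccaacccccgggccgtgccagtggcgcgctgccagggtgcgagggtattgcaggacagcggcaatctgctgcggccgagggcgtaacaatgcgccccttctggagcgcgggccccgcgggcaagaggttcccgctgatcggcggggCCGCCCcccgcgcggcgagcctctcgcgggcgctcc
Gm42400: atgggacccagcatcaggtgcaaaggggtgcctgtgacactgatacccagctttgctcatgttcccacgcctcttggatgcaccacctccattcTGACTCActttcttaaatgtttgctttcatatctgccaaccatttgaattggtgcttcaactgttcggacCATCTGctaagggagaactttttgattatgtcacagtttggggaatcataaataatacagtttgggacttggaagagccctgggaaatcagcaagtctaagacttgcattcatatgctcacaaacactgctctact
The window of Gm45904 (chr8:112922093-112922392, minus strand) had 34.7% GC, 0 CpG and none of the searched letters, and its island was 5.17-fold (2.90 to 10.03) with 107 IP and 13 control reads, 38.3 kb from Cntnap4, a neurexin-family adhesion gene. The window of B330016D10Rik (chr4:141545912-141546211, plus strand) had 74.3% GC, 43 CpG and a GC box, under an island of 3.12-fold (2.10 to 4.79) near Spen, a transcriptional corepressor. The window of Gm9530 (chr1:155083215-155083514, minus strand) had 76.3% GC and runs of GC boxes, and it lay in the distal island of Ier5, an immediate early gene, 12.2 kb away, which was 3.14-fold (1.71 to 6.21). The window of Gm42400 (chr7:81731211-81731510, plus strand) had an AP-1 and an E-box match under a 3.20-fold island (1.66 to 6.77) 23.9 kb from Homer2, a postsynaptic scaffold gene. Islands with CpG-rich and with AT-rich lncRNA starts were therefore both present, with fold intervals that overlapped.

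Each distal island rested on few reads. The IP count ranged from 29 to 243 (median 57, interquartile range 46 to 74) and the control count from 1 to 126 (median 15). Median width was 1600 bp (interquartile range 1200 to 2200), and the median distance to the nearest gene was 19.2 kb (9.37 to 32.3). The authors' fold, the IP to control ratio scaled by library size, had a median of 2.46 (1.91 to 3.31) and ran from 1.21 to 30.8. With counting error in IP and control reads alike, 1989 distal islands (86.0%) had a 95% fold interval above 1, beside 86.4% of all KCl islands. The other 325 (14.05%) passed the authors' FDR of 0.01 but had an interval that included 1. At least 2-fold enrichment was reached by 1627 (70.3%, beside 66.6% of the whole list), and 1782 had an FDR no higher than 1e-05 (77.0%, beside 76.9%). By these shares the distal islands were close to the KCl list as a whole. Intervals cover counting error only, since reads without molecular identifiers are not independent molecules, and they make no allowance for islands having been called by their enrichment.

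**Figure D1:**
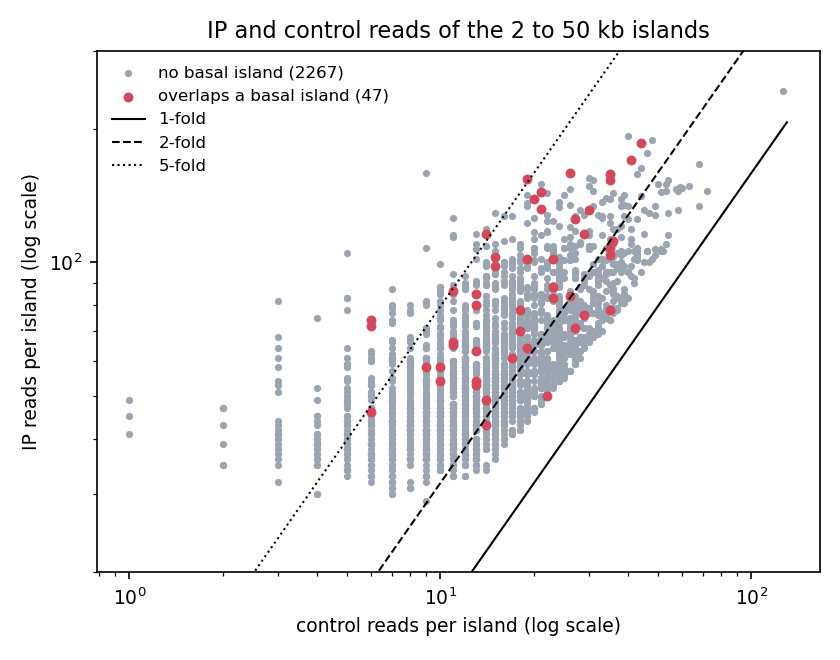
IP reads against control reads of the 2314 distal islands, both on log scales, with 1 point per island and red points for the 47 that overlap a basal island. Lines mark 1-fold, 2-fold and 5-fold enrichment after scaling by library size, and every island lies above the 1-fold line, with folds from 1.21 to 30.8.

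Fold depended on island width within the set. Islands of 800 to 1000 bp (n = 543) had a median fold of 3.30, those of 1200 to 1600 bp (n = 735) 2.61, those of 1800 to 2400 bp (n = 632) 2.22 and those of 2600 to 4800 bp (n = 404) 1.90. The read density fell in the same order, from a median of 47.5 to 28.0 IP reads per kb, and the share with an interval above 1 from 91.5% to 79.7%. A short island needs a denser pile of reads to be called, so width, fold and the calling threshold are not independent. At the width limits of the rule, the 243 islands of 600 bp at this distance had a median fold of 3.87 and the 256 of 800 bp 3.48, while the 3 of 4800 bp had 1.77 and the 5 of 5000 bp 1.66. In all, 389 narrower and 41 broader islands at the same distance fell outside the rule.

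Among KCl islands of the same widths, those at a gene end (within 2 kb of either end, n = 4426) had a median fold of 1.83, and 74.5% (95% interval 73.2 to 75.8) had a fold interval above 1. Islands inside genes (n = 6347) had 2.43 and 87.1% (86.3 to 88.0), close to the distal islands at 2.46 and 86.0% (84.5 to 87.3). Intergenic islands 50 to 500 kb away (n = 3878) had 2.67 and 91.0% (90.1 to 91.9), and those over 500 kb away (n = 1063) 3.04 and 93.9% (92.3 to 95.2). Distal islands thus stood between gene ends and remote intergenic islands. Median width fell along the same series, from 2400 bp at gene ends to 1600 bp in all 3 intergenic classes, and the median control density was 10 reads per kb at gene ends, 9.17 in distal islands and 8.24 beyond 500 kb. The part of width and control density in these folds was not tested.

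Distal islands became denser with distance from a gene. Densities were counted per Mb of intergenic territory, the bases between the first and last gene of each chromosome that lie at a given distance from their nearest gene. There were 3.08 islands per Mb at 2 to 5 kb (95% interval 2.71 to 3.48), 3.43 at 5 to 10 kb, 3.99 at 10 to 20 kb, 4.21 at 20 to 30 kb, 4.43 at 30 to 40 kb and 4.84 at 40 to 50 kb (4.32 to 5.402). The density at 40 to 50 kb was 1.57 times that at 2 to 5 kb (1.33 to 1.86), and the intervals of neighbouring bins overlapped. Islands of the same widths had 2.68 per Mb within 2 kb of a gene without touching it, and 4.84, 5.01 and 5.16 per Mb at 50 to 100, 100 to 200 and 200 to 500 kb. The rise was therefore seen mainly inside the 50 kb, and the density changed little beyond. Median fold went from 2.35 at 2 to 5 kb to 2.65 at 40 to 50 kb. With distance measured from the island midpoint the density ratio was 1.43. The territory counts all bases, mappable or not.

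**Figure D2:**
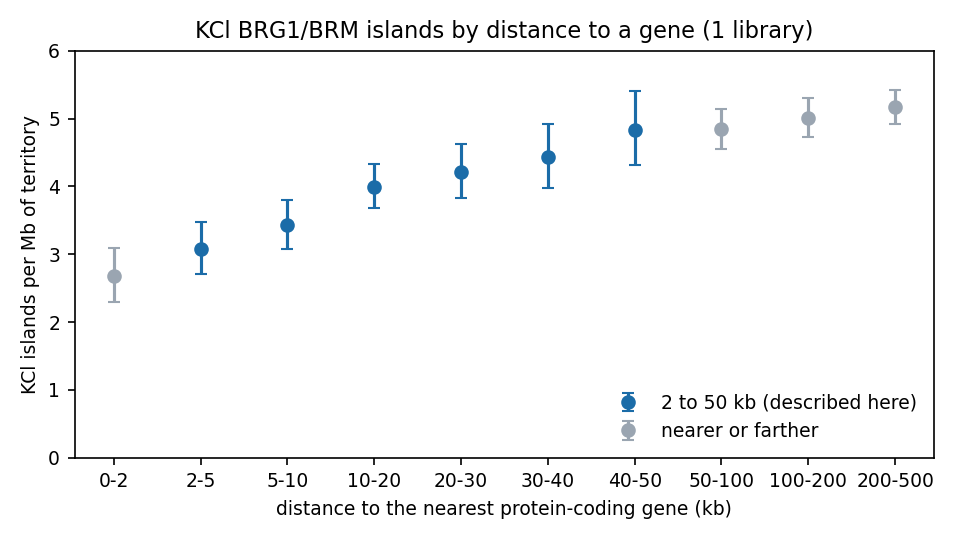
KCl islands over 600 bp and under 5 kb wide per Mb of intergenic territory, by distance to the nearest protein-coding gene. Points are the 1 KCl library, bars are exact 95% Poisson intervals (counting error only), and blue points are the distal islands, which go from 3.08 per Mb at 2 to 5 kb to 4.84 at 40 to 50 kb.

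The limits of 2 and 50 kb cut through a continuous range. The islands just inside 2 kb, beside Tvp23a at 2.011 kb and Mical2 at 2.025 kb, were 3.59-fold and 4.12-fold, and those just outside, beside Stk25 at 1.985 kb and Enah at 1.984 kb, were 3.03-fold and 3.28-fold. Just inside 50 kb, the island of Zbtb10 was 2.81-fold, and just outside, those of Tox2 and Dtnbp1 were 2.80-fold and 2.18-fold. Strand was known for 17492 of the 21887 genes (79.9%). Of the distal islands, 1006 lay upstream (4.02 per Mb), 815 downstream (3.85 per Mb) and 493 beside a gene whose strand the table does not give (4.001 per Mb). At 2 to 10 kb the density was 3.21 per Mb upstream and 3.50 downstream, and at 20 to 50 kb it was 4.58 and 4.06.

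Distal islands were spread over all 19 autosomes, from 2.25 per Mb of territory on chromosome 7 to 6.04 on chromosome 15. The X chromosome had 18 (0.411 per Mb) and the Y chromosome 1 (0.0450 per Mb). This scarcity was not specific to distal sites: all KCl islands on the X numbered 1.33 per Mb of chromosome, against 6.39 to 9.95 on the autosomes, and 3.11% of X-linked genes had a gene-end island, against 17.3% to 35.6%. The control density of X islands was also lower, 7.11 reads per kb against 9.03 to 9.69 on the autosomes, and 7.32 against 8.53 to 10 within the distal islands. X distal islands had a median fold of 3.38, above the autosomal medians of 2.28 to 2.68. The part of the lower control density was not tested, and the sex of the embryos is not in the labels.

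The distal islands had 1847 different nearest genes, 8.44% of the 21887 protein-coding genes and 9.92% of the 18626 with any territory at that distance. Most of these genes (1482) had 1 distal island, 285 had 2, 62 had 3, 14 had 4 and 4 had 5. A KCl island within 2 kb of a gene end was also present at 797 of the 1847 (43.2%, 95% interval 40.9 to 45.4), beside 25.2% of all protein-coding genes and 22.6% of genes with territory but no distal island. The share was 52.9% (47.6 to 58.1) for genes with 2 or more distal islands, 70.0% (58.7 to 79.7) for the 80 genes with 3 or more and 15 of 18 for those with 4 or more. Genes with more distal islands thus more often had BRG1/BRM islands at their own ends. The nearest genes were also longer, with a median of 40.7 kb against 17.2 kb for all genes, and 56.1 kb for genes with 3 or more. The part of gene length was not tested. With islands of at least 2-fold only, the share was 16.6%, beside 8.74% of all genes, and with distance to all RefSeq genes, noncoding ones included, it was 20.8%, beside 16.7% of all those genes. In the latter setting the protein-coding nearest genes had 42.4%, beside 25.2% of protein-coding genes, and the noncoding ones 11.55%, beside 10.07%. Counted by island, 1065 of the 2314 (46.0%, 43.98 to 48.1) had a nearest gene with a gene-end island, and their median fold was 2.51, against 2.43 for the others.

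The 4 genes with 5 distal islands were Tiparp, Hivep2, Mef2c and Zbtb18. Mef2c, which encodes a MADS-box transcription factor of neuronal differentiation and activity response (chr13:83504017-83667079), had 3 upstream, at 48.6, 41.0 and 21.8 kb, with folds of 1.78, 3.01 and 1.94, and 2 downstream, at 5.12 and 39.5 kb, with folds of 2.45 and 3.53. All 5 fold intervals lay above 1, with lower limits from 1.29 to 1.94. Zbtb18 encodes a zinc finger repressor needed in cortical neuron development. Its 5 islands, 3 upstream and 2 downstream of chr1:177442351-177450764, had folds of 1.53 to 2.20, and the one nearest to the gene, 3.95 kb upstream, had an interval from 0.969 to 2.46. Hivep2, a zinc finger transcription factor gene, had 1 upstream island of 3.53-fold and 4 downstream of 1.495 to 2.63-fold, of which the one at 40.8 kb had an interval that included 1 (0.882 to 2.62). Each of these 4 genes also had a gene-end island and distal islands on both sides, with a lone upstream one at Hivep2 and Tiparp.

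Genes with 4 distal islands included Septin7 (a cytoskeletal GTPase), Celf2 (an RNA-binding splicing regulator), Klf7 (a Krüppel-like transcription factor), Pcdh8 (an activity-regulated protocadherin), Plppr4 (a lipid phosphatase-related protein of glutamatergic synapses), Gnai1 (a G-protein alpha subunit), Ndfip2 (an adaptor of NEDD4 ubiquitin ligases), Gpr12 (an orphan receptor), Cyria, Samd5, Tes (a focal adhesion protein) and the predicted gene Gm39147. The 4 Septin7 islands all lay upstream, between 26.2 and 46.0 kb, with folds of 2.05 to 6.28. The 4 of Cyria were likewise all upstream, between 6.73 and 40.3 kb, and the farthest was 7.64-fold (3.35 to 21.5). The islands of Klf7 were all downstream, from 2.45 to 36.2 kb. The other 2 genes with 4 were Snx6, a retromer sorting nexin, and Trim27, a RING finger protein, and both belong to clusters of small RNA genes described below. Over the whole set, another KCl island lay within 10 kb of 630 distal islands (27.2%, 25.4 to 29.1), beside 23.8% of all KCl islands, 28.5% of islands inside genes and 22.1% of those 50 to 500 kb away.

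**Figure D3:**
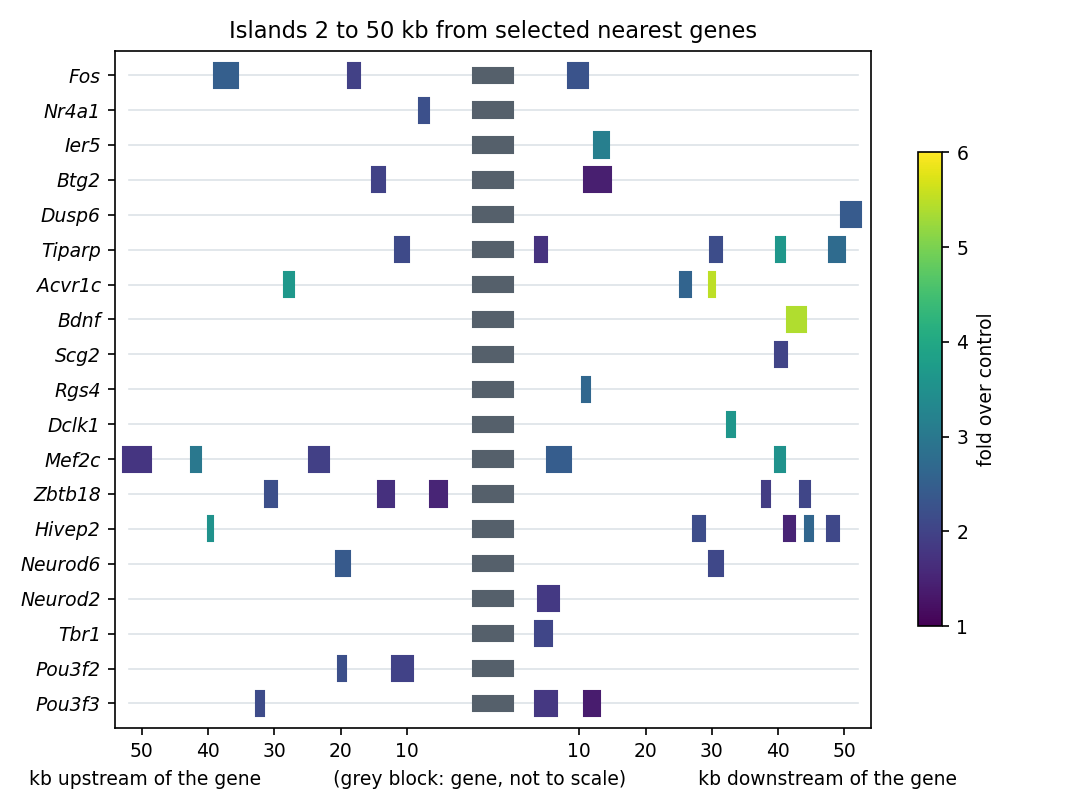
Distal islands beside 19 of the named genes, drawn by distance in kb from the gene (grey block, not to scale), upstream to the left and downstream to the right. Colour is the authors' fold over control, which ran from 1.38 for a Pou3f3 island to 5.50 for an Acvr1c island. Mef2c, Zbtb18, Hivep2 and Tiparp have 5 islands each.

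Activity-regulated genes were examined by lists of rapid and of delayed response genes. Of 38 rapid response genes, 5 (13.2%, 95% interval 4.41 to 28.1) were nearest to a distal island, beside 8.44% of all genes, although 27 of the 38 had a gene-end island. Their 8 distal islands amount to 5.34 per Mb of their territory, against 3.95 per Mb over all genes, with a median fold of 2.25 against 2.46. Fos, the immediate early AP-1 subunit gene (chr12:85473890-85477274), had 3. The island 35.5 kb upstream (chr12:85434801-85438400) held 139 IP and 35 control reads, 2.49-fold (1.71 to 3.72). The island 17.1 kb upstream (chr12:85455001-85456800) held 78 and 25 reads, 1.96-fold (1.24 to 3.21), and that 8.33 kb downstream (chr12:85485601-85488600) held 109 and 30, 2.28-fold (1.51 to 3.54). The 3 intervals overlapped and all lay above 1. Fos is known to be served by several distal enhancers in cortical neurons, and whether these islands are those enhancers was not tested.

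The other rapid response genes had 1 or 2. Btg2, an antiproliferative coregulator gene, had an island 13.2 kb upstream of 1.98-fold (1.18 to 3.46) and one 10.7 kb downstream of 1.42-fold whose interval included 1 (0.977 to 2.11). Nr4a1, an orphan nuclear receptor gene, had one 6.70 kb upstream of 2.22-fold (1.23 to 4.24). Dusp6, which encodes a phosphatase of ERK, had one 49.5 kb downstream of 2.41-fold (1.52 to 3.95), at the far edge of the distance rule, and the Ier5 island is the one that holds the Gm9530 start shown above. All 5 of these genes had gene-end islands as well. None of the 8 distal islands overlapped a basal island, but only 2.03% of all distal islands did.

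Of 24 delayed response genes, 7 (29.2%, 12.6 to 51.1) were nearest to a distal island, with 13 islands in all (7.87 per Mb) and a median fold of 2.72. All 13 had an interval above 1. Bdnf, the gene of brain-derived neurotrophic factor (chr2:109674700-109727043), had one 41.4 kb downstream (chr2:109768401-109771200) with 129 IP and 15 control reads, 5.401-fold (3.16 to 9.93). This lower limit is higher than that of any other island of these 2 lists. Tiparp, a mono-ADP-ribosyltransferase gene, had 5, from 9.65 kb upstream to 47.7 kb downstream, with folds of 1.73 to 3.64. Acvr1c, an activin receptor gene, had one upstream of 3.66-fold (2.17 to 6.53) and 2 downstream of 2.59-fold and 5.50-fold, the latter from 35 IP and 4 control reads. Nrn1, the neurite-promoting neuritin gene, was at 4.397-fold (1.98 to 11.5), Dclk1, a doublecortin-like kinase gene, at 3.63-fold, Rgs4, a regulator of G-protein signalling, at 2.65-fold and Scg2, which encodes the secretory granule protein secretogranin II, at 2.002-fold. Of the 7 genes, Rgs4 had no gene-end island. None of the 13 overlapped a basal island, as for all but 47 of the 2314.

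Cortical neuron genes had the highest share among the 13 lists under the reported rule, a rank that was lost under the settings of minimum fold and annotation given below. Distal islands lay beside 13 of 34 (38.2%, 22.2 to 56.4), 25 islands in all or 12.7 per Mb of their territory, against 3.95 per Mb over all genes. Their median fold was 1.94, below the 2.46 of all distal islands, and 20 of the 25 had an interval above 1. By the lower limit of their best island, the leading genes were Mef2c (3.53-fold, 1.94 to 6.94), Cux1 (an upper-layer homeobox gene, 3.71-fold, 1.88 to 8.13), Map2 (the dendritic microtubule protein, 3.87-fold, 1.62 to 11.2) and Neurod6 (a bHLH factor of excitatory neurons, 2.40-fold, 1.505 to 3.99). Other genes of the list with islands, named after their values were seen, include Pou3f3 with 3, Pou3f2, Bhlhe22 and Snap25 with 2 each, and Neurod2, Tbr1 and Tle4 with 1 each. The transcription factor genes thus made up most of the group. For Pou3f3, a POU homeobox gene, the folds were 1.38 to 2.15, and 1 of the 3 intervals included 1 (0.888 to 2.18).

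Markers of other cell types were set beside the 8.44% and 3.95 islands per Mb of all genes. Cortical progenitor genes had distal islands at 5 of 22 (22.7%, 7.82 to 45.4), among them Emx2 (a homeobox gene of the cortical neuroepithelium, 3.77-fold, 1.77 to 9.22), Btg2, Lhx2 and Emx1, with 6 islands and 4.86 per Mb. Interneuron genes had 2 of 20 (Sst and Npy, both neuropeptides, 2.02 per Mb), astrocyte genes 1 of 15 (Slc1a3, a glutamate transporter, 2 islands, 3.42 per Mb) and oligodendrocyte lineage genes 2 of 15 (Mobp and Mog, myelin proteins, 3.499 per Mb). Microglia genes had 2 of 15 (13.3%, 1.66 to 40.5, 6.00 per Mb) and liver and muscle genes 2 of 20 (3.56 per Mb). The intervals of all these lists include the 8.44% of all genes. Among microglia genes, Ptprc (the leukocyte phosphatase CD45) had a 4.55-fold island (2.48 to 9.15) 3.26 kb downstream and Fcrls one of 2.72-fold. Gene-end islands, present at 25.2% of all genes, were at 29 of 34 cortical neuron genes, 14 of 22 progenitor, 5 of 20 interneuron, 6 of 15 astrocyte, 2 of 15 oligodendrocyte lineage, 0 of 15 microglia and 1 of 20 liver and muscle genes. Occupancy is not expression, so these counts neither check the labelled cell type nor measure the cells in the culture.

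Genes of axon guidance and synaptic adhesion also had distal islands. In the axon guidance list these were 10 of 37 (27.0%, 13.8 to 44.1), with 13 islands, 5.38 per Mb and a median fold of 3.49. Ephrin receptors led it: Epha5 (6.05-fold, 2.92 to 14.5), Epha4 with 3 islands, the strongest 6.28-fold (2.72 to 17.8), and Epha3 (4.46-fold). Robo1, the receptor of SLIT repellents, had one of 4.89-fold (2.43 to 11.1), and of the genes named after their values were seen, Epha7 had 2 (3.52-fold and 3.49-fold) and Slit3, Sema3a, Sema3d, Sema3e and Unc5a had 1 each. In the synaptic adhesion list, 8 of 34 genes (23.5%, 10.7 to 41.2) had 13 islands, or 6.44 per Mb, against 3.95 over all genes. Their median fold was 2.92, and all had an interval above 1. Flrt2, a latrophilin ligand, had one of 7.96-fold (2.52 to 40.3) from 38 IP and 3 control reads, and Cntnap2, a neurexin-family gene, had 2 downstream (5.23-fold and 2.98-fold). Slitrk1 (4.82-fold and 2.42-fold) and Slitrk5 (2.92-fold and 2.03-fold), both synapse-organizing receptors, had 2 each. BAF subunit genes had 2 of 29 (Bcl11a and Arid1b) and ribosomal protein genes 1 of 38 (Rps24, 1.51-fold, 0.905 to 2.61).

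**Figure D4:**
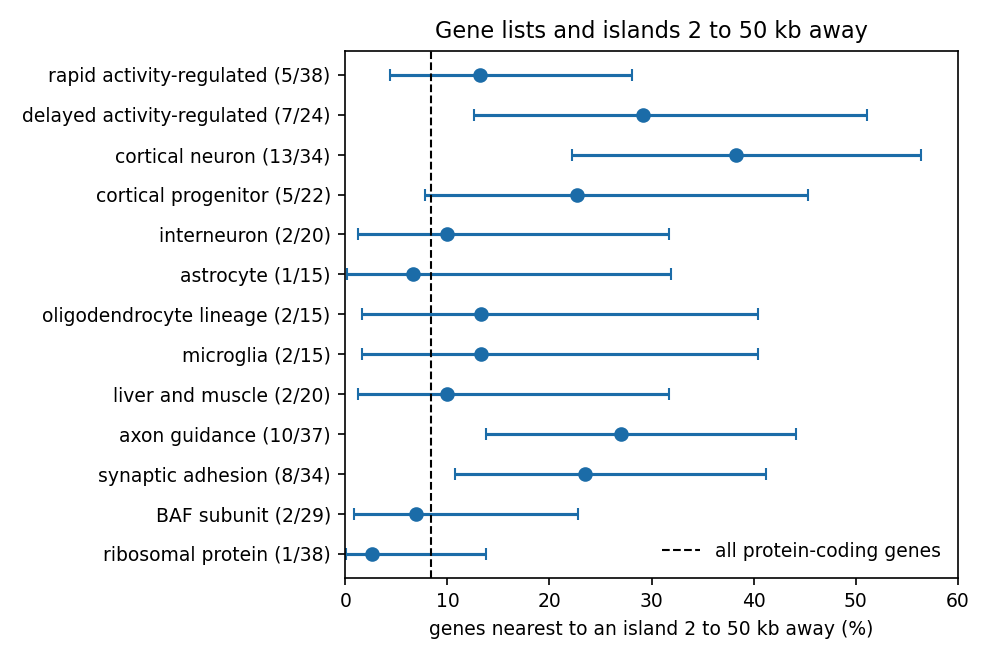
Share of the genes of each list that are nearest to at least 1 distal island, with exact 95% intervals over genes and the counts in brackets. The dashed line is the 8.44% of all protein-coding genes, and cortical neuron (38.2%), delayed activity-regulated (29.2%), axon guidance (27.0%) and synaptic adhesion genes (23.5%) have intervals above it. Shares make no allowance for territory at 2 to 50 kb: the 37 axon guidance genes had 2.42 Mb and all 21887 genes 585 Mb. Per Mb of territory these lists had, in the same order, 12.7, 7.87, 5.38 and 6.44 islands, against 3.95 over all genes.

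These counts depend on the annotation. With distance measured to all RefSeq genes, an island nearer to a noncoding gene is no longer assigned to the protein-coding one, and 4.01% of all protein-coding genes were nearest to a distal island. The counts in that setting were 8 of 37 axon guidance (21.6%), 6 of 34 cortical neuron (17.6%), 4 of 24 delayed (16.7%), 4 of 34 synaptic adhesion (11.8%) and 2 of 38 rapid response genes (5.26%). With islands of at least 2-fold only, the share over all genes was 6.26%, and the counts were 7 delayed (29.2%), 9 axon guidance (24.3%), 8 cortical neuron (23.5%), 8 synaptic adhesion (23.5%) and 4 rapid response genes (10.5%). Cortical neuron genes thus no longer ranked first in either setting.

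Clustered gene families differed among themselves. Of 1463 olfactory and vomeronasal receptor genes, a list made after the values were seen, 25 (1.71%, 1.11 to 2.51) were nearest to a distal island, with 0.741 islands per Mb of their 36.4 Mb of territory. Their 27 islands had a median fold of 3.32. Of 74 histone genes, also listed after the values were seen, 4 (5.41%, 1.49 to 13.3) were nearest to a distal island. These 4 islands lay in only 0.414 Mb of territory, or 9.66 per Mb, against 3.95 per Mb over all genes. All 4 also covered tRNA genes (described below), so this density cannot be assigned to the histone genes. Of the 4, 3 had a fold interval above 1. Whether reads map uniquely in these families was not tested.

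Counted by island, distal islands overlapped noncoding genes more often than KCl islands in general. A noncoding RefSeq gene lay under 593 (25.6%, 23.9 to 27.5), beside 15.2% of all KCl islands, and a lncRNA gene under 508 (21.95%, beside 13.6%). Among intergenic islands farther from a gene, a lncRNA gene lay under 17.2% of islands 50 to 500 kb away and 12.3% of those over 500 kb away. By gene the order differed: 443 of 3826 lncRNA genes at 2 to 50 kb (11.6%) were in a KCl island of any width. The share was 18.6% of all lncRNA genes, 28.7% of those within 2 kb and 17.3% of those beyond 50 kb. Distal islands over a lncRNA gene had a median fold of 2.26, against 2.55 for the others, and a control density of 9.55 against 9 reads per kb. By the lower limit of the fold, the leading lncRNA genes were Gm30909 (near Nr3c1), Gm40683 (11.3-fold, 3.67 to 56.5), Gm36264 (11.1-fold, 3.596 to 55.5), Gm40079 (7.54-fold, 3.30 to 21.2) and Gm42256 (6.64-fold, 3.07 to 17.1). Each of these rests on 7 or fewer control reads.

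Transfer RNA genes were the most unevenly placed. They encode the adaptors of translation and are transcribed by RNA polymerase III. At least 1 tRNA gene lay under 46 distal islands (1.99%, 1.46 to 2.64), beside 0.41% of all KCl islands, 0.655% of islands at gene ends, 0.0315% of those inside genes, 0.0516% of those 50 to 500 kb away and 0 of 1063 over 500 kb away, which allows up to 0.346% by the exact interval. The 46 islands covered 94 of the 408 annotated tRNA genes. Counted by gene, 248 tRNA genes lay 2 to 50 kb from a protein-coding gene and 114 of them (46.0%) were in a KCl island of any width, beside 35 of 56 (62.5%) within 2 kb, 13 of 34 (38.2%) in a gene, 2 of 70 (2.86%) beyond 50 kb and 164 of 408 (40.2%) in all. The share of occupied tRNA genes at 2 to 50 kb was therefore close to that of all tRNA genes, most of which lie at this distance. The islands over tRNA genes were weaker, with a median fold of 1.73 against 2.49 for other distal islands, and 34 of 46 had an interval above 1. Their control density was higher, 12.2 against 9.17 reads per kb, while IP density was 35.0 against 36.2. None overlapped a basal island, beside 2.03% of all distal islands. Of the 46, 10 reached 2-fold (0.615% of such distal islands, beside 0.129% of such KCl islands).

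A single stretch of chromosome 13, chr13:21166201-23519800, held 18 of these 46 islands and 38 of the 94 tRNA genes over 2.35 Mb, with folds from 1.37 to 3.63. This stretch overlaps the main histone gene cluster, in which tRNA genes are interspersed. All 4 distal islands of Trim27 lay there over tRNA genes, and the strongest (chr13:21199001-21201000, 81 IP and 14 control reads, 3.63-fold, 2.05 to 6.94) covered n-TLcaa1, a leucine tRNA gene. The island near H4c8 (chr13:23517001-23519800), at 1.995-fold (1.35 to 3.03), covered 5 tRNA genes. Copies of tRNA genes have near-identical sequences, so the place of their reads is uncertain, and the part of read placement and of the higher control density was not tested.

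Many small nuclear RNAs (snRNAs) build the spliceosome. An snRNA gene lay under 20 distal islands (0.864%, 0.529 to 1.33), beside 0.205% of all KCl islands. The count was 0 of 3878 islands 50 to 500 kb away. The snRNA genes under distal islands, named after their values were seen, include Rnu11 (2.28-fold, 1.51 to 3.54), Rnu5g (1.73-fold, 1.12 to 2.75) and Rnu2-10 (1.44-fold, 0.928 to 2.30). Another named in this way is Rn7sk, the RNA that holds the elongation factor P-TEFb inactive (2.17-fold, 1.37 to 3.58). A run of 3 neighbouring islands downstream of Snx6 each covered an annotated snRNA gene (Gm26444, LOC115488077 and Gm22317), with folds of 2.34 to 2.87. The control density of islands over snRNA genes was 12.5 reads per kb against 9.17 for the others, and these genes too have near-identical copies. Counted by gene, 21 of the 313 snRNA genes at 2 to 50 kb (6.71%) were in a KCl island of any width. The share was 4.58% of all 1004 snRNA genes, 13.95% of those within 2 kb and 5.37% of those in a gene. It was 0 of 294 beyond 50 kb. The part of gene placement in the share by island was not tested.

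**Figure D5:**
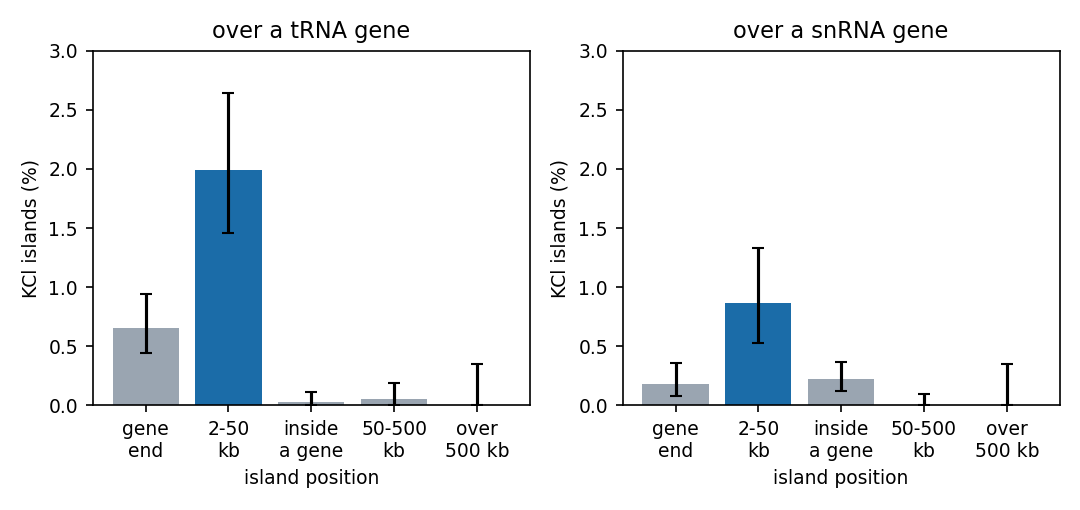
Share of KCl islands (over 600 bp and under 5 kb wide) that overlap a tRNA gene (left) or an snRNA gene (right), by position relative to protein-coding genes, with exact 95% intervals (counting error only). Blue bars are the distal islands at 1.99% and 0.864%, above the other classes in both panels. Shares are counted by island and make no allowance for where the tRNA and snRNA genes lie.

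The strongest distal islands were ranked by the lower limit of the fold interval, since folds from 1 to 5 control reads are imprecise. First was the island 20.3 kb upstream of Rasa1, a Ras GTPase-activating protein gene (chr13:85309801-85311800), with 159 IP and 9 control reads, 11.1-fold (5.70 to 24.7). Next were those of Cand1, an exchange factor of cullin ubiquitin ligases (82 and 3 reads, 17.2-fold, 5.67 to 85.0), and Ints4, an Integrator subunit gene (105 and 5 reads, 13.2-fold, 5.48 to 41.5). The highest fold of the set, 30.8 beside Nr3c1, the glucocorticoid receptor gene, came from 49 IP reads and 1 control read and has an interval from 5.27 to 1240. The islands of 4933402N22Rik and Cttnbp2, a cortactin-binding synaptic protein gene, also had 1 control read each and lower limits of 4.82 and 4.37. Htr1f, Rfxap, Tfip11 and Ropn1 completed the first 10, with folds of 10.4 to 14.2 and lower limits of 4.29 to 4.67. None of these 10 overlapped a basal island, but only 2.03% of all distal islands did. With so few control reads the order of the 10 is not settled, since the intervals all overlap.

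Read number and fold ranked different islands. The most IP reads, 243, lay 45.0 kb downstream of Smgc, a salivary gland protein gene, but 126 control reads lay there too, and the fold was 1.21 (0.973 to 1.51), the lowest of the set. The next were the islands of Kcnmb4, a potassium channel beta subunit gene (193 and 40 reads, 3.03-fold, 2.15 to 4.37), Hpf1, a PARP cofactor gene (189 and 48 reads, 2.47-fold, 1.79 to 3.47), Fam135a (186 and 44 reads, 2.65-fold, 1.90 to 3.78) and Ptn, the pleiotrophin growth factor gene (176 and 46 reads, 2.40-fold, 1.73 to 3.401). All 5 intervals were narrower than those of the 10 islands with the highest lower limits.

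The basal library gave 711 islands in all, and 115 of them met the same position and width rule. A basal island overlapped 47 distal islands (2.03%, 1.496 to 2.69), beside 2.15% of all KCl islands, 2.58% of those inside genes (2.21 to 3.00), 0.723% at gene ends (0.495 to 1.02) and 3.22% of those 50 to 500 kb away (2.69 to 3.83). The lists came from libraries of unknown depth with separate controls, so an island absent from the basal list may be one that was not detectable there, and the difference in number cannot be read as a change in binding. Shared distal islands had a median KCl fold of 2.79, against 2.46 for the others, and a median of 84 IP reads against 57. Their basal folds ran from 1.30 to 5.68 (median 2.05), and in 40 of 47 pairs both intervals lay above 1.

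By KCl fold, the first shared islands lay beside Mucl2 (7.75-fold in KCl and 3.25-fold in basal), Tmem154 (7.54 and 2.76), Vmn2r78, a vomeronasal receptor gene (5.20 and 4.83), Rspo2, a WNT agonist gene (5.09 and 1.53), and Sorl1, a neuronal sorting receptor gene (4.91 and 1.47). They were followed by Pnma2 (4.82 and 1.68), Olfr459 (4.37 and 2.03), Map9 (4.31 and 2.15), Asph (4.31 and 2.41) and Kif16b (4.11 and 2.88). In all 10 the fold was higher in the KCl list, but they were ranked by the KCl fold and each fold rests on its own control, so this direction was fixed in part by the choice. Over all 47 pairs the fold was higher in the KCl list in 36 and in the basal list in 11. In 2 pairs the intervals did not overlap. All 47 pairs entered through the KCl rule, and each fold rests on its own island limits and control. The median fold was 2.46 over all distal islands and 1.72 over the 115 basal islands that met the same rule. The counts of 36 and 11 therefore cannot be read as a change in binding. Among the 11, named after their values were seen, were the islands of Stmn4, a stathmin-family microtubule regulator gene (2.79 in KCl and 5.68 in basal), and Fancf, a Fanconi anaemia gene (2.74 and 4.22). At Rspo2, Sorl1 and Pnma2 the basal interval included 1 (lower limits of 0.944, 0.959 and 0.986). The shared islands also include the one 21.8 kb upstream of Mef2c, the only one of the 25 cortical neuron list islands with a basal overlap, and that of Fam135a.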

How the data were processed

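Islands were called on 1 IP library per condition against a control. Per the submitters' processing notes, BWA (version not given in the sources used here) aligned reads to mm10 (GRCm38), and SICER 1.0 was run. The deposited names give window 200 bp, gap 600 bp, FDR 0.01. Which input was the control is not stated in the labels, and the inputs' own files were not analysed here. The values deposited by the authors are, per island, IP and control read counts (raw), a p-value, an FDR (an adjusted p-value) and a fold, the count ratio over a library constant (1.592 for KCl, 0.8799 for basal). Total depth could not be recovered, and KCl islands held at least 20 IP reads.

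Distances, from 1-based positions to 21887 protein-coding genes of RefSeq GRCm38.p6, equalled those of bedtools 2.31.1 for 20966 of 20966 islands. Fold intervals are exact binomial 95% intervals of the IP share, rescaled by the constant, those of shares Clopper-Pearson and those of densities Poisson (scipy 1.17.1). The code was tested on simulated islands. No genome sequence was used here, so islands were not searched for motifs.

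The distal islands, the 13 gene lists (341 entries, all found) and the rules were chosen with earlier results of these data known. Named islands are the 10 with the highest lower fold limit, the first 10 by KCl fold of those shared with basal, the 5 with the most IP reads and those at the distance limits. Named genes are those with the most distal islands (18, with ties at 4), all with islands in the activity-regulated lists, up to 4 per other list by lower fold limit, every miRNA gene and 5 other noncoding genes. A few items chosen this way are not reported here. Alternatives were a stricter FDR, a minimum fold, all RefSeq genes, no predicted Gm genes, midpoint distances, a wider gene-end window, a larger overlap, and leaving out the islands of highest control density.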

Additional observations from a re-analysis of the deposited data

How the results depend on the processing

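Of 80 alternative values, 57 stayed within the interval or 1.5-fold range of the reported one and 23 moved. Whether a direction reversed was not checked. Measuring distance to all RefSeq genes in place of protein-coding ones gave 3554 distal islands, 2922 nearest genes, a median fold of 2.64, 89.5% with an interval above 1, a basal overlap of 2.73%, a density ratio of 1.31 (40 to 50 over 2 to 5 kb), 20.8% of nearest genes with a gene-end island (16.7% of all genes of that setting), and 0 islands over tRNA genes by construction. In that setting 4.01% of protein-coding genes had a distal island, and 6 cortical neuron, 4 delayed, 2 rapid, 4 synaptic adhesion and 8 axon guidance genes, the last then the highest share. An FDR of at most 1e-05 gave a median fold of 2.80, 100.0% with an interval above 1, 31.4% of nearest genes with a gene-end island (15.1% of all genes) and 23 islands over tRNA genes (1.29%, beside 0.298% of all KCl islands). A minimum of 2-fold gave 2.89, 99.9%, 16.6% (8.74% of all genes), 10 islands over tRNA genes (0.615%, beside 0.129%) and 8 cortical neuron genes (23.5%, below delayed genes at 29.2%, with 6.26% of all genes). A gene-end window of 5 kb gave 53.9% (29.0% of all genes), and an overlap of at least 50% of the KCl island gave a basal overlap of 1.38%. The tRNA alternatives were added after seeing the data. No paired analysis was possible because each group had 1 library and the labels carry no replicate numbers, and for the same reason no library could be left out. Counts of 1 to 5 control reads limit the precision of the highest folds.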
